A study of Sus scrofa with 92 samples.

Results

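The 9 genes described here are the chaperones and regulators of the unfolded protein response CRELD2, HSPA5, HSP90B1, PDIA4, DNAJB9, SDF2L1, MANF, XBP1 and HERPUD1, taken by gene symbol from a table of 25322 pig Ensembl identifiers. Of the 9, 8 had an identifier, and HERPUD1 was not analysed here. The animals were juvenile male Yorkshire-Landrace pigs, fasted overnight, that were splenectomized and then went through blunt chest injury, hemorrhage, liver crush injury, shock and resuscitation. In the fasted group (FS, 18 animals) nothing was fed, and in the carbohydrate prefed group (CPF, 5 animals) a bolus of diluted sugar syrup was given before induction. Liver biopsies were taken at Baseline (B) after instrumentation and at 2, 8 and 20 hours of full resuscitation (FR2, FR8 and FR20). The design has no uninjured animals sampled over time, so injury and resuscitation cannot be told apart from anesthesia, surgery and repeated biopsy. Of the animals, 3 FS and 2 CPF died.

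The endoplasmic reticulum (ER) is where secreted proteins are folded, and in liver it handles the large output of plasma proteins made by hepatocytes. When unfolded proteins build up, the sensors IRE1 (encoded by ERN1), PERK (EIF2AK3) and ATF6 start the unfolded protein response. IRE1 splices the XBP1 mRNA into the form that encodes an active transcription factor, ATF6 is cut to release another, and both raise transcription of ER chaperones, while PERK slows translation and favors ATF4. Counts per gene do not separate spliced from unspliced XBP1 mRNA.

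The members have separate roles in this system. HSPA5 (ENSSSCG00000005601, BiP) is the ER chaperone of the HSP70 family, and HSP90B1 (ENSSSCG00000000849, GRP94) is its HSP90 counterpart in the ER. PDIA4 (ENSSSCG00000015453) is a protein disulfide isomerase, and CRELD2 (ENSSSCG00000000981) is an ER protein with isomerase activity that is known for its response to ER stress. DNAJB9 (ENSSSCG00000016653) is a J-domain partner of HSPA5, SDF2L1 (ENSSSCG00000010085) works in ER chaperone complexes, and MANF (ENSSSCG00000011421) binds HSPA5 and can be secreted. XBP1 (ENSSSCG00000030996) is the transcription factor of the IRE1 branch. DNAJB9 and XBP1 were identified through a gene name table, and the other 6 members through symbols in tables of the study.

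The data are counts of reads per gene in 92 libraries, of which 88 were used. Left out were the Baseline libraries of FS animals 17, 19 and 21, which have at most 899 counts of albumin mRNA, and the FR8 library of CPF animal 3, which has 4388 counts in all. Library totals ran from 6877117 to 16613261 counts (median 12071957.5), and levels are in CPM, counts scaled to a common library size with factors from the trimmed mean of M values (TMM). At this depth the members had medians of 643.5 (SDF2L1) to 16352 (HSPA5) counts. The summed CPM of 9 hepatocyte markers was between 19592.6 and 245975.7 in every library, so hepatocyte RNA was abundant throughout. In these bulk biopsies, fewer cells of a type and less RNA per cell cannot be told apart.

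Some libraries went against their labels, and the members followed this pattern in part. Each library was set against the median profiles of the 4 timepoints in the other animals, over 1000 genes outside every list used here. By this measure 18 of the 88 libraries, from 9 animals, were nearest to another timepoint than their label. In FS animals 17, 19 and 21 the library labelled FR2 was nearest FR8, that labelled FR8 was nearest B and that labelled FR20 was nearest FR2. In FS animal 10 the library labelled B was nearest FR8, that labelled FR2 nearest FR20 and that labelled FR8 nearest FR2. In FS animal 9 the FR8 and FR20 libraries were each nearest the other timepoint. The Baseline library of FS animal 4 was weakly nearest FR20 (r = 0.11). There the mean log2 difference of the members from the median FS Baseline library was 2.185, above the highest FS library at FR20 (1.914). The FR20 libraries of FS animal 20 and CPF animal 8 were nearest FR8, and that of CPF animal 13 was nearest B. Labels were kept as given, and results are also shown without these 18 libraries. That choice used expression at the same timepoints, so it favors differences between timepoints and is not independent support for them. A second irregularity was in FS animal 11, whose FR2 and FR8 libraries hold 0 counts on 272 and 269 of 2559 abundant genes, PDIA4 among them. No other library had a 0 on any of these genes.

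The main result was at 8 hours. In FS animals 6 of the 8 members rose at FR8vB (FR8 against Baseline), by log2 fold changes of 1.397 to 3.41, and in CPF animals 5 of 8 rose, by 2.11 to 3.68. CRELD2 had the highest fold change in both groups, and SDF2L1, HSPA5, MANF and HSP90B1 were also called in both. PDIA4 was called in FS animals, with 1.66 (SE 0.88, adjusted p = 0.207) in CPF animals. XBP1 and DNAJB9 were not called in either group. Called means a Benjamini-Hochberg adjusted p under 0.05 over all 13667 genes tested and a log2 fold change of at least 1, in edgeR's quasi-likelihood F test with a term for each animal. Here rose and fell are used of called genes, and other genes are given by their values. By the same rule 4.44% of all genes rose at FR8vB in FS animals and 3.7% in CPF animals. The CPF count changed with single animals left out: 2 members were called without animal 7, 3 without animal 13 and 0 without animal 18. In FS animals the count was 6 without FS animal 2, 16 or 20, the only FS animals left out in turn. The share of all genes called in these fits, which hold fewer animals, is not given here.

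**Figure D1:**
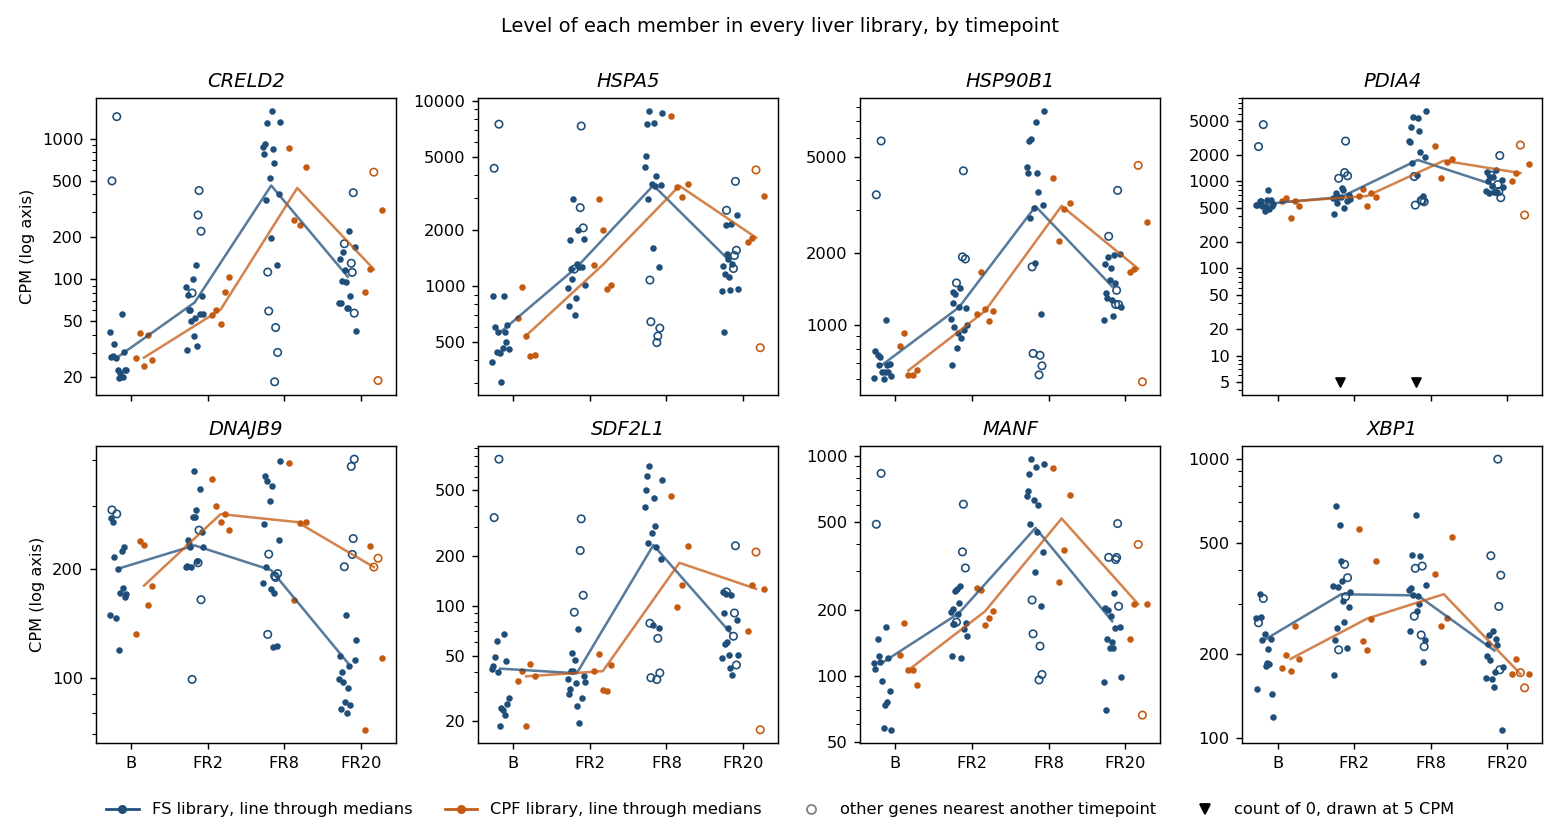
Level of each of the 8 members in every library by timepoint, in TMM-scaled CPM on a log axis. Points are libraries of FS (blue) and CPF (orange) animals, lines join the group medians, open circles are the 18 libraries whose other genes were nearest another timepoint, and black triangles are the 2 libraries with a PDIA4 count of 0. The open circles of CRELD2 at FR8 in FS animals lie from 18.6 to 112 CPM, below the 13 filled ones at 126 to 1565 CPM.

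CRELD2 changed the most. In FS animals its level was 19.8 CPM in the lowest, 28.03 CPM in the median and 1431 CPM in the highest library at B, and 18.6, 463 and 1565 CPM at FR8. In CPF animals 3, 7, 8, 13 and 18 it was 27.7, 41.4, 24.2, 40.0 and 26.7 CPM at B, and in animals 7, 8, 13 and 18 it was 859, 262, 244 and 628 CPM at FR8. The CPF libraries at FR8 are all above those at B. How many of all genes separate in this way was not counted, for CRELD2 or for the members below. At FR8vB in CPF animals 28.4% of all genes had an unadjusted p under 0.05 in edgeR's test. The FS groups overlap, since the Baseline libraries of animals 4 and 10 are high and the FR8 libraries of animals 10, 17, 19 and 21 are low (18.6 to 59.3 CPM). The fold change at FR8vB was 10.7 in FS animals (log2 3.41, SE 0.64, edgeR adjusted p = 2.45e-05) and 12.8 in CPF animals (log2 3.68, SE 1.05, edgeR adjusted p = 0.0149). Of 15 FS animals with both libraries, 14 were higher at FR8 than at B, the exception being animal 10. Without the 18 libraries the FS level was 29.0 ± 10.5 CPM at B (SD, n = 13) and 757 ± 442 CPM at FR8 (SD, n = 13), a log2 fold change of 4.62 (SE 0.29).

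HSPA5, the central ER chaperone, was the most heavily counted member. Its FS level ran from 304 over a median of 562 to 7495 CPM at B and from 495 over 3503 to 8809 CPM at FR8. In CPF animals 3, 7, 8, 13 and 18 it was 672, 984, 541, 421 and 422 CPM at B, and in animals 7, 8, 13 and 18 it was 8275, 3422, 3024 and 3541 CPM at FR8. HSPA5 was higher at FR8 than at B in each of the 4 CPF animals with both libraries, by 2.66 to 3.07 on the log2 scale, and in 14 of 15 FS animals. The log2 fold change at FR8vB was 2.11 (SE 0.43, edgeR adjusted p = 6.69e-05) in FS and 2.85 (SE 0.75, edgeR adjusted p = 0.00949) in CPF animals.

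HSP90B1 is the ER form of HSP90. Outside animals 4 and 10, its 13 FS Baseline libraries lay between 597 and 1051 CPM (701 ± 120 CPM, SD), and those of animals 4 and 10 were at 3476 and 5809.8 CPM. At FR8 the FS libraries ran from 623 over a median of 3114 to 7718 CPM, and CPF animals 7, 8, 13 and 18 were at 4069, 2239.9, 3046 and 3207 CPM against 619 to 929 CPM at B. The groups did not overlap in CPF animals. Log2 fold changes at FR8vB were 1.75 (SE 0.33, edgeR adjusted p = 2.9e-05) in FS and 2.11 (SE 0.60, edgeR adjusted p = 0.0148) in CPF animals.

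SDF2L1 and MANF followed the same course. SDF2L1 ran from 18.8 over 41.7 to 767 CPM at B and from 35.8 over 232 to 694 CPM at FR8 in FS animals. In CPF animals SDF2L1 was 18.7 to 44.5 CPM at B, and in animals 7, 8, 13 and 18 it was 463, 98.8, 134 and 229 CPM at FR8. Its log2 fold change was 2.17 (SE 0.47, edgeR adjusted p = 0.00017) in FS and 2.47 (SE 0.82, edgeR adjusted p = 0.0349) in CPF animals. MANF ran from 56.8 over 115 to 836 CPM at B and from 95.7 over 472 to 969.8 CPM at FR8 in FS animals. In CPF animals MANF was 91.1 to 174 CPM at B and 885, 268, 376 and 665 CPM at FR8. Its log2 fold change was 1.77 (SE 0.35, edgeR adjusted p = 5e-05) in FS and 2.14 (SE 0.62, edgeR adjusted p = 0.017) in CPF animals. For both genes 14 of 15 FS animals and 4 of 4 CPF animals were higher at FR8 than at B.

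PDIA4, the disulfide isomerase among the members, carries the irregular libraries of animal 11. In FS animals it ran from 461 over 549.9 to 4487 CPM at B and from 0 over 1761 to 6394 CPM at FR8, and without animal 11 the lowest FR8 library was at 534 CPM. CPF animals 3, 7, 8, 13 and 18 were at 594, 639.5, 381, 588 and 522 CPM at B, and animals 7, 8, 13 and 18 at 2525, 1107, 1663 and 1794 CPM at FR8, with no overlap. The log2 fold change was 1.397 (SE 0.50, edgeR adjusted p = 0.0198) in FS animals. Without the 2 libraries of animal 11 it was 1.58 (SE 0.33, edgeR adjusted p = 0.000136) in FS animals and 1.66 (SE 0.59, edgeR adjusted p = 0.0437) in CPF animals. PDIA4 was thus called in both groups once these libraries were left out, with 6 of 8 members called in CPF animals, where 4.34% of all genes rose. No CPF library was dropped there, and the groups share a common estimate of the spread, so CPF calls also depend on FS libraries.

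XBP1 and DNAJB9 had smaller changes at FR8vB than the other members. In FS animals the lowest, median and highest levels of XBP1 were 119, 224 and 327 CPM at B, 167, 326 and 675 CPM at FR2, and 186, 323 and 626 CPM at FR8. At FR20 they were 107, 205 and 996 CPM, with animal 17 highest. The timepoints overlapped throughout. Within animals, XBP1 was higher at FR8 than at B in 14 of 15 FS and 4 of 4 CPF animals. Its log2 fold change was 0.51 (SE 0.17, edgeR adjusted p = 0.0113) at FR2vB and 0.52 (SE 0.17, edgeR adjusted p = 0.00987) at FR8vB in FS animals, which passed the adjusted p and stayed under the fold limit. In CPF animals it was 177, 197.9, 173, 252 and 191 CPM at B and 385, 251, 268 and 522 CPM at FR8 in animals 7, 8, 13 and 18 (log2 0.85, SE 0.32, edgeR adjusted p = 0.0616). DNAJB9 ran from 119 over 200.5 to 292 CPM at B and from 122 over 199 to 398 CPM at FR8 in FS animals, with a log2 fold change of 0.09 (SE 0.20, edgeR adjusted p = 0.754). At FR20 DNAJB9 ran from 79.7 over 110.02 to 403 CPM, and its log2 fold change at FR20vB was -0.59 (SE 0.20, edgeR adjusted p = 0.02). Of 15 FS animals with both libraries, 13 had a lower level of DNAJB9 at FR20 than at B and 2 a higher one. It was lower in all 11 whose B and FR20 libraries were both nearest their own timepoint, a choice that favors such a difference. Without the 18 libraries its log2 fold change at FR20vB was -0.94 (SE 0.16), just under the fold limit.

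**Figure D2:**
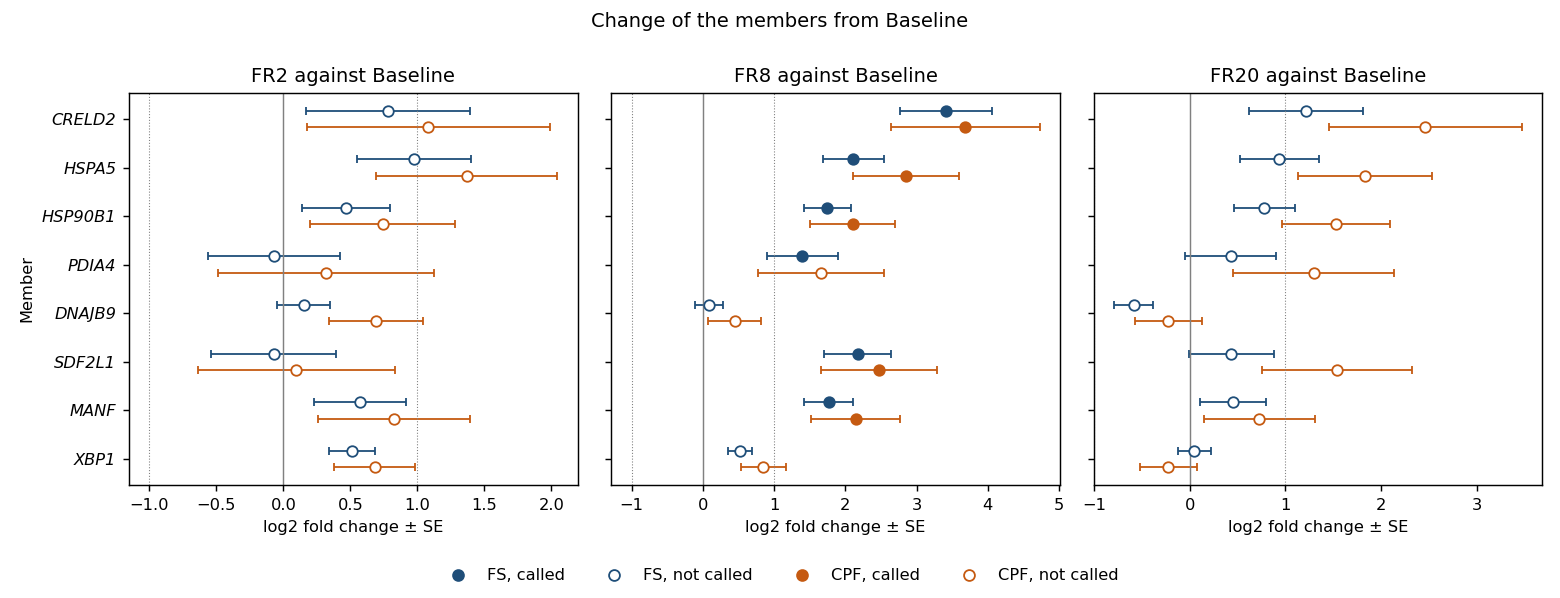
Log2 fold change from Baseline of the 8 members at FR2, FR8 and FR20 in FS (blue) and CPF (orange) animals, with bars of 1 SE. Filled points passed an adjusted p under 0.05 and a log2 fold change of at least 1 (dotted lines), which 6 FS and 5 CPF points did, all at FR8.

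At FR2 no member was called in either group, against 5.17% of all genes that rose and 5.85% that fell in FS animals, and 1.47% and 0.937% in CPF animals. HSPA5 was nearest, at a log2 fold change of 0.98 (SE 0.42, edgeR adjusted p = 0.0572) in FS and 1.37 (SE 0.68, edgeR adjusted p = 0.242) in CPF animals. HSPA5 in the 5 CPF animals ran from 971 over 1304 to 2946 CPM at FR2, and each animal was above its own Baseline. At an unadjusted p under 0.05 there were 2 members in each group, HSPA5 and XBP1, against 6668 of 13667 genes in FS and 2735 in CPF animals, and DESeq2 and the likelihood ratio test called 0. SDF2L1 stayed near Baseline at FR2, with a median of 39.1 CPM and a log2 fold change of -0.07 (SE 0.47) in FS animals. Without the 18 libraries CRELD2 (1.13) and HSPA5 (1.26) were called at FR2vB in FS animals and HSPA5 (1.396) in CPF animals, where 7.2% and 3.17% of all genes rose.

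Between FR2 and FR8 the same 6 genes as at FR8vB were called in FS animals, with log2 fold changes of 1.14 (HSPA5) to 2.63 (CRELD2), against 2.52% of all genes. In CPF animals 0 of 8 were called, against 2.57% of all genes called as higher, and 5 had an unadjusted p under 0.05, against 26.6% of all genes. DESeq2 and the likelihood ratio test each called 2 there. Of all genes they called 1178 and 1013 in either direction, against 673 with the quasi-likelihood test. Without the 18 libraries, none of which is a CPF library at FR2 or FR8, 5 members were called in CPF animals, from 1.29 (MANF) to 2.66 (CRELD2), and 5.68% of all genes rose. The CRELD2 estimate was 2.60 (SE 1.01) with all libraries and 2.66 (SE 0.44) without the 18. FS and CPF animals share a common estimate of the spread in the fit, so a CPF SE also depends on FS libraries.

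Between FR8 and FR20 the FS levels of 4 members fell. In FS animals CRELD2 fell by 2.20 (SE 0.53), SDF2L1 by 1.74 (SE 0.41), MANF by 1.31 (SE 0.32) and HSPA5 by 1.18 (SE 0.38) on the log2 scale, with edgeR adjusted p-values from 0.00638 to 0.0442. Only 0.278% of all genes fell by this rule, 38 of 13667. The FS median of CRELD2 was 463 CPM at FR8 and 104 CPM at FR20, and that of HSPA5 3503 and 1364 CPM. HSP90B1, PDIA4, DNAJB9 and XBP1 had log2 fold changes from -0.97 to -0.47 and were not called. HSP90B1 (-0.97, edgeR adjusted p = 0.0368) and DNAJB9 (-0.67, edgeR adjusted p = 0.0204) passed the adjusted p and stayed under the fold limit. Without the 2 libraries of animal 11 PDIA4 was called (-1.18, SE 0.31, edgeR adjusted p = 0.0135) and HSPA5 was not (-1.13, SE 0.39, edgeR adjusted p = 0.0698). When the 18 libraries were left out 7 members were called, XBP1 being the exception, and 2.1% of all genes fell. In CPF animals 0 of 8 were called, with log2 fold changes of -1.41 to -0.36, and 2 (MANF and XBP1) had an unadjusted p under 0.05, against 10.9% of all genes. There 0.0146% of all genes fell, which is 2 genes. DESeq2 and the likelihood ratio test also called 0.

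At FR20 no member was called against Baseline, in a setting where 4.68% of genes rose and 5.25% fell in FS animals and 0.249% rose and 0.454% fell in CPF animals. In FS animals CRELD2 had a log2 fold change of 1.21 (SE 0.59, edgeR adjusted p = 0.107), HSPA5 0.94 (SE 0.41, edgeR adjusted p = 0.071) and HSP90B1 0.78 (SE 0.32, edgeR adjusted p = 0.0528). DESeq2 called 1 member in FS animals, and 1448 of all genes in either direction, against 1358 with the quasi-likelihood test. At an unadjusted p under 0.05 there were 4, these 3 higher and DNAJB9 lower, against 43.4% of all genes. In CPF animals CRELD2 was 80.5, 117, 577, 19.02 and 312 CPM in animals 3, 7, 8, 13 and 18, so that the highest and the lowest library are those that were nearest FR8 and B. CPF log2 fold changes at FR20vB reached 2.46 (CRELD2, SE 1.01, edgeR adjusted p = 0.204), and 3 members had an unadjusted p under 0.05, against 16.5% of all genes. Without the 18 libraries CRELD2 (1.75), HSPA5 (1.32) and HSP90B1 (1.06) were called in FS animals and CRELD2 (2.05), HSPA5 (1.85), HSP90B1 (1.36) and SDF2L1 (1.35) in CPF animals, in a setting where 7.76% and 2.63% of all genes rose.

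**Figure D3:**
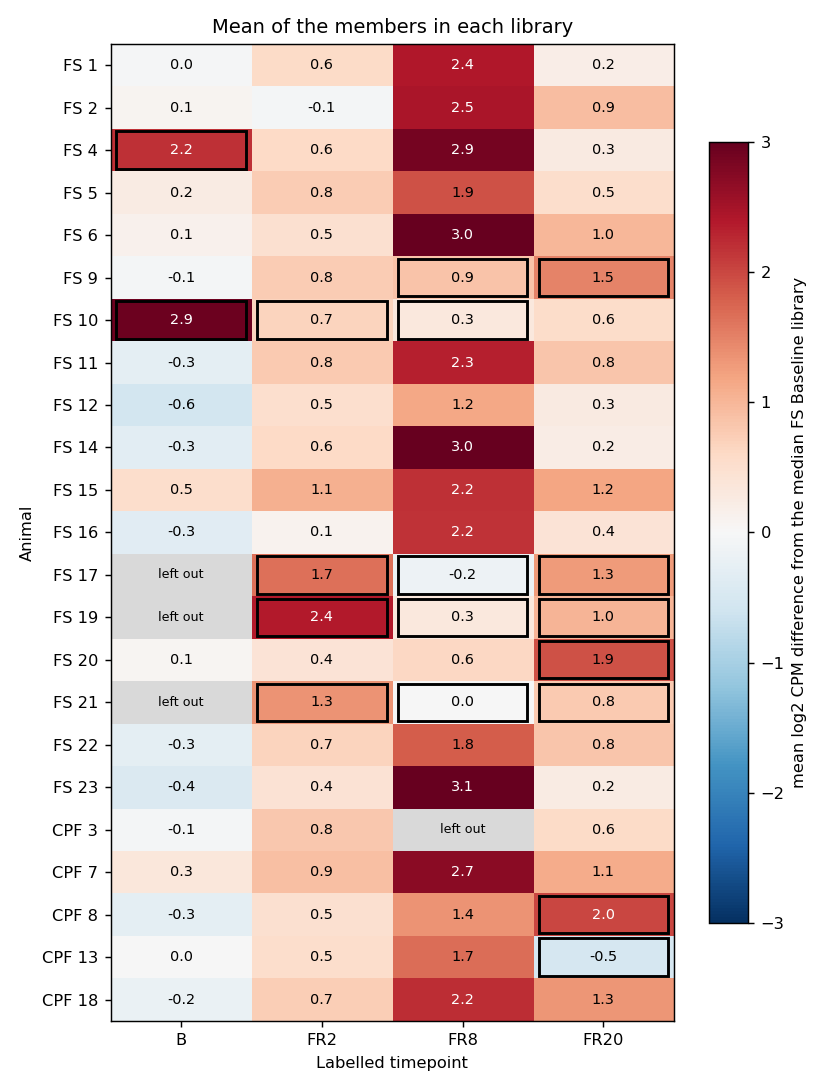
Mean log2 CPM of the 8 members in each library, as the difference from the median FS Baseline library, for every animal (rows) and labelled timepoint (columns). PDIA4 is left out of the mean in the 2 libraries of FS animal 11 where its count is 0, black frames mark the 18 libraries nearest another timepoint, and gray cells are the libraries left out. The value is highest at FR8 in most rows, and the frames hold the high Baseline values of FS animals 4 and 10 and the low FR8 values of FS animals 10, 17, 19 and 21.

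Animal by animal, the peak was mostly at FR8. Of the 15 FS animals with 4 libraries, 12 had their highest level of CRELD2, HSPA5, HSP90B1, SDF2L1 and MANF at FR8, as did 3 of 4 CPF animals. For PDIA4 it was 11 of 15 FS and 3 of 4 CPF animals. XBP1 peaked at FR2 in 6 and at FR8 in 7 of 15 FS animals, and DNAJB9 at FR2 in 6 and at FR8 in 5. In CPF animals XBP1 peaked at FR8 in 4 of 4, and DNAJB9 at FR2 in 2 and at FR8 in 2. Levels varied among animals, and HSPA5 ran from 1276 (animal 20) to 8809 CPM (animal 6) over the 13 FS libraries at FR8 that were nearest their own timepoint. The mean log2 difference of the members from the median FS Baseline library was 2.04 in the median FS library at FR8 and 1.94 in the median CPF library.

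The 6 genes that rose at FR8 in FS animals were also compared within animals. After centring log2 CPM on each animal, and without the 2 libraries of animal 11, their 15 pairwise Pearson correlations over 86 libraries were 0.869 to 0.978. Over all 88 libraries the correlations were 0.358 to 0.975. The libraries share the timepoints and the 6 genes were chosen by their rise in them, so the values only describe a common course. DNAJB9 had a median r of 0.214 and XBP1 of 0.409 with the other members, and their correlation with each other was 0.681. Over all 88 libraries PDIA4 had a median r of 0.413, and of 0.898 without those 2 libraries.

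The genes most like the mean of the members over the 88 libraries were DNAJB11 (r = 0.962), CALR (0.95), DNAJC3 (0.937), PDIA3 (0.937), CDK2AP2 (0.936), NUCB2 (0.933), GMPPB (0.933), NANS (0.931), CANX (0.914) and VCP (0.913), out of 13659 genes with a median r of 0.036. DNAJB11, CALR, DNAJC3, PDIA3 and CANX are ER folding factors, and VCP extracts proteins from the ER membrane for degradation. GMPPB and NANS are enzymes that make sugar precursors for glycosylation. Without the 2 libraries of animal 11, 8 of these 10 were again among the 10 highest.

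**Figure D4:**
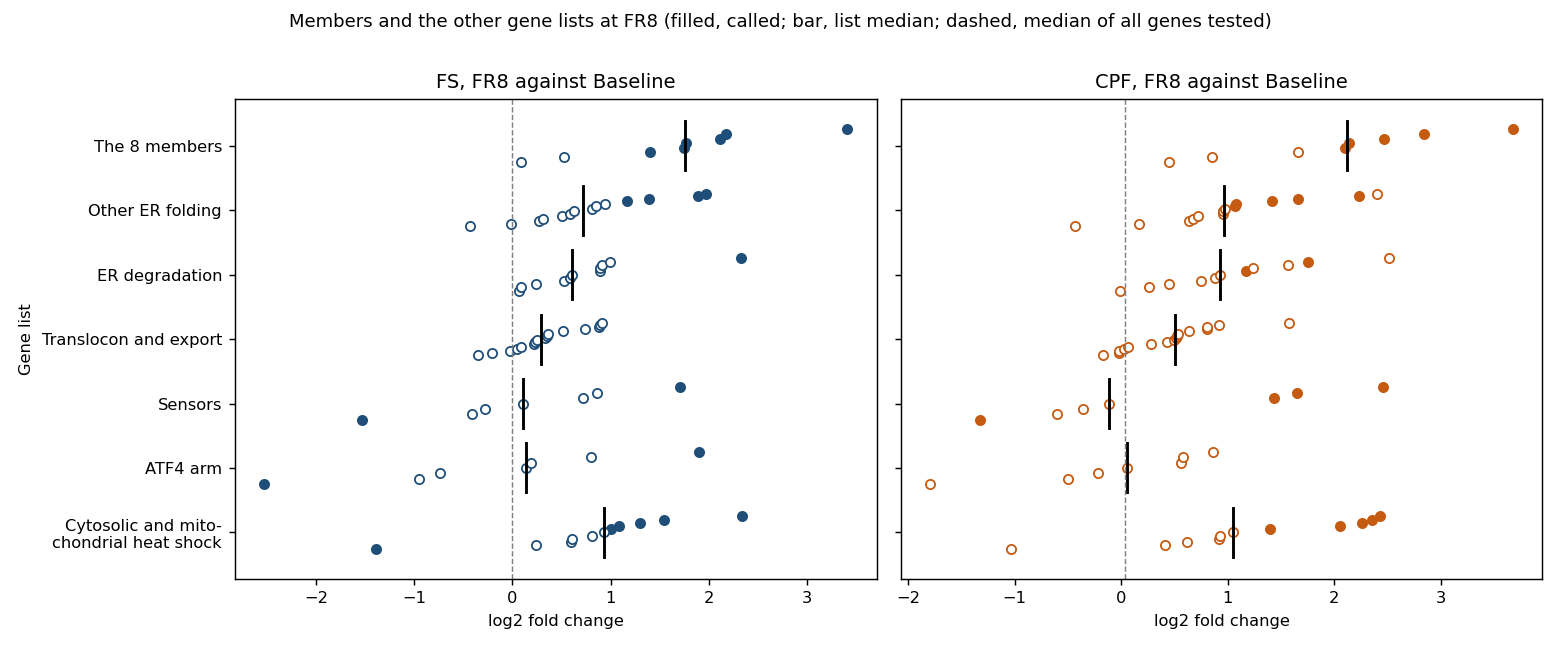
Log2 fold change at FR8 against Baseline of the 8 members and of each gene in 6 other lists, in FS (left) and CPF (right) animals. Filled points were called, black bars are list medians, and the dashed line is the median of all genes tested (0.00 in FS and 0.04 in CPF animals). The member medians are 1.76 and 2.12, and those of the other ER folding genes 0.72 and 0.96.

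Of 20 other ER folding genes listed, 14 had an identifier and were tested. At FR8vB 4 of 14 were called up and 0 down in FS animals (median log2 fold change 0.72, against 0.00 over all genes tested). In CPF animals 5 of 14 were called up and 0 down (median 0.96). Of all genes, 4.44% rose there in FS animals and 3.7% in CPF animals. The highest in FS animals were DNAJB11, an HSPA5 partner (1.98, SE 0.38, edgeR adjusted p = 3.59e-05), and HYOU1, an ER chaperone of the HSP70 superfamily (1.89, SE 0.56, edgeR adjusted p = 0.00517). HYOU1 is also at 0 in the 2 libraries of animal 11. The lowest were TXNDC11 at -0.02 (SE 0.12) and SIL1, a nucleotide exchange factor of HSPA5, at -0.44 (SE 0.15, edgeR adjusted p = 0.017). None of the 14 was called at FR2vB or FR20vB in either group. In the 70 other libraries, leaving out the 18, 7 of 14 were called up at FR8vB in FS animals, where 9.4% of all genes rose.

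Of 14 ER degradation genes listed, 11 had an identifier and were tested. Of these 11, 1 was called up at FR8vB in FS animals (median 0.60) and 2 in CPF animals (median 0.93), and 0 were down. Of all genes, 4.44% rose there in FS animals and 3.7% in CPF animals. DERL3, a channel component of ER degradation, rose by 2.33 (SE 0.62, edgeR adjusted p = 0.00208) in FS animals from a median of 2.1 CPM at B, and VCP had 0.99 (SE 0.17, edgeR adjusted p = 4.6e-06), just under the fold limit. EDEM2, which helps to mark misfolded glycoproteins for degradation, had 0.09 (SE 0.10). DERL3 was also the 1 gene of this list called at FR20vB in FS animals, where 4.68% of all genes rose. None was called at FR2vB in either group or at FR20vB in CPF animals. Leaving out the 18 libraries, 5 of 11 were called up at FR8vB in FS animals, against the same 9.4% of all genes.

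Of 20 listed genes of the translocon and of export from the ER, 16 had an identifier and were tested. Of these 16, 0 were called in any of the 6 comparisons with Baseline. At FR8vB 4.44% of all genes rose in FS animals and 3.7% in CPF animals. In FS animals 7 of the 16 passed the adjusted p upward and 1 downward at FR8vB with smaller fold changes (median 0.29). SEC61A1, the channel of the translocon, had 0.91 (SE 0.19, edgeR adjusted p = 0.000142) and SSR1 0.89 (SE 0.15, edgeR adjusted p = 4.91e-06). SSR4 had -0.21 (SE 0.31) and SEC62 -0.35 (SE 0.11, edgeR adjusted p = 0.00661). SSR4 is another gene at 0 in animal 11. Leaving out the 18 libraries, 4 of 16 were called up at FR8vB in FS animals, again against 9.4%.

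Sensors and their relatives split, and 7 of the 8 listed had an identifier. Of 7 genes, 1 rose and 1 fell at FR8vB in FS animals (median 0.11), and 3 rose and 1 fell in CPF animals (median -0.12). Of all genes, 4.44% rose and 7.39% fell there in FS animals, and 3.7% rose and 5.14% fell in CPF animals. CREB3L3, a membrane-bound transcription factor of liver, rose by 1.71 (SE 0.28, edgeR adjusted p = 3.04e-06) in FS and 2.46 (SE 0.52, edgeR adjusted p = 0.0027) in CPF animals. ERN1 (IRE1), the kinase and nuclease that splices XBP1, fell by 1.54 (SE 0.22, edgeR adjusted p = 4.77e-07) in FS and 1.33 (SE 0.42, edgeR adjusted p = 0.0266) in CPF animals, with FS medians of 125.6 CPM at B and 37.5 CPM at FR8. ATF6 had 0.86 (SE 0.22, edgeR adjusted p = 0.00119) in FS animals and rose by 1.44 (SE 0.42, edgeR adjusted p = 0.0174) in CPF animals. MBTPS1, the protease that cuts ATF6, had -0.41 (SE 0.11, edgeR adjusted p = 0.00145) in FS animals. CREB3L3 was also called up and ERN1 down at FR20vB in FS animals, against 4.68% of all genes that rose and 5.25% that fell. At FR2vB 0 were called in FS animals and 1 rose in CPF animals, where 1.47% of all genes rose. At FR20vB 0 were called in CPF animals.

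The tested genes of the ATF4 arm gave no common direction. Of 10 listed, 7 had an identifier, and DDIT3, CHAC1 and CEBPB were not analysed here. Of 7 genes, 1 rose and 1 fell at FR8vB in FS animals (median 0.14), and 0 were called in CPF animals (median 0.05). Of all genes, 4.44% rose and 7.39% fell there in FS animals, and 3.7% rose and 5.14% fell in CPF animals. TRIB3, a pseudokinase induced through ATF4, rose by 1.91 (SE 0.37, edgeR adjusted p = 3.9e-05), and SESN2, a stress-induced regulator of growth signaling, fell by 2.53 (SE 0.34, edgeR adjusted p = 2.28e-07). ASNS (0.80, SE 0.36) and ATF3 (-0.96, SE 0.47) were not called and are both at 0 in animal 11. At FR2vB and FR20vB 2 genes (TRIB3 and ASNS) rose and 1 (SESN2) fell in FS animals. Of all genes, 5.17% rose and 5.85% fell at FR2vB and 4.68% rose and 5.25% fell at FR20vB in FS animals. In CPF animals 1 rose at FR2vB, against 1.47% of all genes, and 0 were called at FR20vB.

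The heat shock genes of the cytosol and the mitochondria (HSPD1, HSPE1 and HSPA9) act outside the ER, and 12 were listed. HSPA1A had 0 counts in all libraries and was not tested. Of the 11 tested, 5 were called up at FR2vB in FS animals (median 0.81) and 2 in CPF animals (median 0.46), where no member was. Of all genes, 5.17% rose at FR2vB in FS animals and 1.47% in CPF animals. At FR8vB 5 rose and 1 fell in FS animals (median 0.94) and 5 rose and 0 fell in CPF animals (median 1.05). Of all genes, 4.44% rose and 7.39% fell there in FS animals, and 3.7% rose in CPF animals. HSP90AA1, the inducible cytosolic HSP90, rose by 1.55 (SE 0.28, edgeR adjusted p = 1.26e-05) in FS animals, whereas HSP90AB1 had 0.24 (SE 0.11). HSPB1 (2.34, SE 0.85, edgeR adjusted p = 0.0239) was called at a median of 0.1 CPM at FR8, and BAG3 fell by 1.39 (SE 0.33, edgeR adjusted p = 0.000609). HSPA8, another gene of this list, is at 0 in the FR2 and FR8 libraries of FS animal 11. At FR20vB 4 rose and 1 fell in FS animals, against 4.68% of all genes that rose and 5.25% that fell. In CPF animals 0 were called at FR20vB. The difference in timing between these genes and the members was not tested.

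No difference between CPF and FS animals was detectable for the members. The CPF change minus the FS change was called for 0 of 8 members at FR2vB, FR8vB and FR20vB, and 0% of all genes were called at each (397, 468 and 521 genes with an unadjusted p under 0.05). None of the 8 members had an unadjusted p under 0.05 with edgeR's quasi-likelihood test, its likelihood ratio test or DESeq2. At FR8vB the difference was 0.74 for HSPA5, with an approximate 95% interval of -0.88 to 2.35 from its SE, and 0.27 for CRELD2, with -1.97 to 2.51. For XBP1 it was 0.33, with -0.38 to 1.03. Without the 18 libraries the estimate at FR8vB turned negative for 6 of the 8 members, at -0.28 for HSPA5 and -0.89 for CRELD2, and 0 were called. These intervals hold differences of more than 2-fold in both directions for CRELD2, so equal changes in the 2 groups are not shown.

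The fed states were also compared at single timepoints. At B 0 of 8 were called (0.0257% of 11688 genes), and at FR2, FR8 and FR20 0 of 8 (0% of genes each). No member had an unadjusted p under 0.05 in edgeR's quasi-likelihood test or in DESeq2. At B 2 did in the likelihood ratio test, against 845 of all genes. The largest estimate was that of CRELD2 at B, at -2.24 (SE 1.11, edgeR adjusted p = 0.654), and it rests on animals 4 and 10, whose Baseline libraries are among the 18: without the 18 it was 0.14. The Baseline level of CRELD2 was 154 ± 374 CPM (SD, n = 15) in FS and 32.0 ± 8.07 CPM (SD, n = 5) in CPF animals, and the FS level without these animals was 29.0 ± 10.5 CPM (SD, n = 13). The Baseline of HSPA5 was 1261 ± 1988 CPM in FS animals, 546 ± 172 CPM without these animals and 608 ± 234 CPM in CPF animals.

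Animals that died were compared with those that lived, with a term for the fed state. At B, FR2, FR8 and FR20 0 of 8 members were called, as was 0% of all genes at each. DESeq2 and the likelihood ratio test called 0 members as well. At FR20 5 members had an unadjusted p under 0.05 and were higher in animals that died, from 0.66 (PDIA4, SE 0.24) to 1.07 (CRELD2, SE 0.45) on the log2 scale, with edgeR adjusted p-values of 0.87 to 0.904, against 5.22% of all genes at that p. At an unadjusted p under 0.05 there were 0 members at B (8.54% of all genes), 2 at FR2 (5.52% of all genes) and 0 at FR8 (2.22%). With DESeq2 it was 4 members at FR2, against 781 of all genes. The FR20 libraries of FS animal 20 and CPF animal 8, both of which died, are among the 18. At FR2 XBP1 was lower in animals that died (log2 -0.84, SE 0.24, edgeR adjusted p = 0.602).

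Other cell types were followed by marker lists beside these changes. Of all genes, 4.44% rose and 7.39% fell at FR8vB in FS animals, and 3.7% rose and 5.14% fell in CPF animals. The summed CPM of the 9 hepatocyte markers had FS medians of 191359.3 at B, 133916.0 at FR2, 72738.6 at FR8 and 47165.0 at FR20, and at FR8vB 1 of the 9 rose and 4 fell. The sum was lowest at FR20, whereas the members were highest at FR8. The 4 neutrophil markers had an FS median of 1.0 CPM at B (range 0.0 to 13.8), a range of 4.2 to 52.5 CPM at FR2, and medians of 7.3 CPM at FR8 (0.5 to 30.5) and 5.5 at FR20 (1.4 to 48.9), and 3 of 4 rose at FR8vB. In FS animals the 4 macrophage markers had medians between 83.6 and 103.3 CPM, the 5 T and NK cell markers between 25.6 and 29.4 CPM and the 5 B and plasma cell markers between 9.7 and 14.5 CPM. The 5 endothelial markers had medians of 200.9 to 230.7 CPM, the 5 stellate and smooth muscle markers 518.0 to 914.9 CPM, the 3 bile duct markers 18.1 to 28.6 CPM, the 2 erythroid markers 109.3 to 255.2 CPM and the 6 striated muscle markers 12.1 to 21.3 CPM. None of the T and NK, B and plasma, endothelial, bile duct or striated muscle markers was called at FR8vB in FS animals. There 1 macrophage and 1 stellate marker and both erythroid markers fell. APOA1 (hepatocyte), TAGLN (stellate and smooth muscle) and HBB (erythroid) are at 0 in the FR2 and FR8 libraries of FS animal 11. In CPF animals 1 hepatocyte, 1 neutrophil, 1 macrophage and 1 endothelial marker rose and 2 hepatocyte, 2 T and NK and 1 B and plasma cell markers fell. The part of these markers in the members' values was not tested.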

How the data were processed

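Per the labels and the study's methods, poly(A) RNA libraries were sequenced on the Illumina HiSeq, and the authors aligned the reads with TopHat 1.5.0 to Sscrofa10.2, sorted them with SAMtools and deposited raw HTSeq counts per pig Ensembl gene. The strand setting of the counting is not given in the sources used here. All 92 columns matched a library. Counts were analysed with edgeR 4.0.16 and DESeq2 1.42.0 in R 4.3.3: TMM scaling, genes whose CPM summed to 10 or more in the fitted libraries, and 2-sided quasi-likelihood F tests. Changes were fitted on 88 libraries with animal terms and, in each fed state, a term per later timepoint. Both fed states shared a common estimate of the spread for each gene. The fed states, and animals that died and lived, were compared at each timepoint. SE is the log2 fold change divided by the square root of F. Tests were tried on simulated counts.

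Animals were identified from the titles and numbered here. Residual correlations had a median of 0.205 between libraries of an animal (94 of 126 over 0.1) and -0.02 between animals (414 of 1791), so the animal block was kept. Labels name no sequencing batch.

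Members and lists were chosen with earlier results of these data known. Named were all members, the 2 highest and 2 lowest genes of each other list at FR8vB in FS animals and the 10 genes most like the members by Pearson r of animal-centred log2 CPM (prior count 2). A single result under this rule is not reported here. Alternatives were RLE and upper quartile scaling, filterByExpr, no filter, DESeq2, the likelihood ratio test, the adjusted p alone, 91 and 92 libraries, no animal terms and leaving out animals. Leaving out the 18 and the 2 irregular libraries was chosen after seeing the data. Gene lengths were not used here, so levels of different genes were not compared.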

Additional observations from a re-analysis of the deposited data

Results flagged for a closer look

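Of the 32 groups of CPF values tested for a sample far from the others, 2 had one, both in CPF animal 7, and chance gives about 1 in 20. HSPA5 at FR8 was 8274.75 CPM in animal 7, with the other animals at 3024.05 to 3541.46 CPM. HSP90B1 at FR2 was 1664.45 CPM in animal 7, with the others at 1044.44 to 1167.42 CPM.

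The FR8 library of CPF animal 3, outside every comparison, holds 4388 counts, of which 49 are HSPA5, 46 HSP90B1 and 32 PDIA4. On the library total these are 11166.82, 10483.14 and 7292.62 CPM, above the highest CPF Baseline library for each (951.2, 898.36 and 618.38 CPM). CRELD2 had 2 counts and SDF2L1 and XBP1 1 each, and DNAJB9 and MANF had 0. At a total this low a count of 3 is worth more than the Baseline level of these last 5 genes, so nothing can be read from them.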

How the results depend on the processing

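At FR8vB in FS animals 6 members were called in each setting run, apart from 7 with the adjusted p alone. At FR2vB in FS animals the count of 0 became 1 with the adjusted p alone, with 91 libraries and with 92 libraries. At FR20vB in FS animals the count of 0 became 1 with the adjusted p alone and with DESeq2, and 2 with 91 and with 92 libraries. At FR8vB in CPF animals the count of 5 became 3 with 92 libraries, and at FR8vFR2 in CPF animals the count of 0 became 2 with DESeq2 and with the likelihood ratio test. Without the 18 libraries nearest another timepoint, a setting chosen after seeing the data, the counts were 2 at FR2vB, 3 at FR20vB and 7 at FR20vFR8 in FS animals, and 1 at FR2vB, 4 at FR20vB, 5 at FR8vFR2 and 2 at FR20vFR8 in CPF animals. With 1 animal left out, counts ran from 0 to 5 at FR8vB in CPF animals, 3 to 5 at FR20vFR8 and 5 to 6 at FR8vFR2 in FS animals. They were 6 at FR8vB in FS animals and 0 in the other comparisons. The cause of these shifts was not tested. At FR20vFR8 in CPF animals 0.636% of all genes fell without the 18 libraries. The shares of all genes are not given here for the adjusted p alone, for 91 and 92 libraries and for the leave-outs of 1 animal.

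Among the changes over time within a fed state, the sign turned in 20 cases, none of them past the threshold with all 88 libraries. Among the differences between fed states, it turned without the 18 libraries for 6 of 8 members in the CPF minus FS change at FR8vB, for 4 at B and for 6 at FR2, with 0 called, and for 1 to 3 members in each of the other 4 comparisons. Without the animal block, CRELD2 was at -0.53 at FR2vB and -0.29 at FR20vB, SDF2L1 at -0.36 at FR20vB and XBP1 at -0.029 at FR8vFR2 in FS animals. With 91 and 92 libraries PDIA4 was at 0.28 and 0.30 and SDF2L1 at 0.42 and 0.43 at FR2vB in FS animals, and PDIA4 was at 0.11 without the 2 libraries of animal 11, a setting also chosen after seeing the data. XBP1 was at -0.14 at FR20vB in FS animals without the 18 libraries and at -0.098 at FR8vFR2 in CPF animals with 92 libraries. At FR8vFR2 in FS animals XBP1 was at -0.001 with DESeq2 and with RLE scaling, -0.015 with no filter, -0.002 with 91 and -0.027 with 92 libraries, -0.017 without FS animal 2 and -0.041 without FS animal 16. With 1 animal left out XBP1 ran from -0.041 to 0.027 and DNAJB9 from -0.092 to 0.007 at FR8vFR2 in FS animals, and SDF2L1 from -0.034 to 0.35 at FR2vB in CPF animals. Of the other values of single members, 617 kept their side of the threshold with 1 animal left out, 18 no longer passed it and 1 newly passed it. In the other settings 823 kept it, 7 no longer passed and 34 newly passed. Leaving out each of the other 15 FS animals was not run for the fits over time. Groups of 4 or 5 CPF animals limit what can be detected.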
